A study of Caenorhabditis elegans with 18 samples.

Results

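The genes described here are 10 insulin-like peptide genes of Caenorhabditis elegans: daf-28, ins-1, ins-3, ins-4, ins-6, ins-7, ins-17, ins-18, ins-24 and ins-35. They were chosen by name from the gene annotation deposited with the arrays (WormBase release 180), as genes with a probe set mapped uniquely to them, and they are 10 of the 17603 genes with such a probe set. For each gene the unique probe set with the highest mean over all conditions was used. This choice mattered for ins-24, which has 2 unique probe sets, while the others have 1 each. The platform annotation gives the same symbol for all 10 probe sets.

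Whole worms of the wild-type strain N2 were profiled on Affymetrix C. elegans arrays after growth at 20 °C in S-complete, a buffered liquid medium, in 10 ml cultures of 10000 larvae. Larvae hatched with food (25 mg/ml of Escherichia coli HB101 bacteria) or without it, and both were collected at 0, 1, 3, 6, 12, 15 and 24 h after the time at which 50% had hatched. The remaining conditions were larvae given food for 3 h after 12 h of starvation (refed), larvae kept without food for 3 h after 12 h of feeding (food removed), larvae starved for 3 h in M9 buffer, and 3-fold embryos 2 h before hatching. Larvae are labelled L1 (first larval stage) apart from the 15 h fed sample, labelled L1-L2, and the 24 h fed sample, labelled L2, so that stage and food differed together at those times.

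Insulin-like peptides are small secreted proteins that bind DAF-2, the insulin receptor of the worm. Active DAF-2 signals through the phosphoinositide 3-kinase AGE-1 and the kinases PDK-1, AKT-1 and AKT-2 to keep the FoxO transcription factor DAF-16 out of the nucleus, and DAF-16 activity is needed for larvae that hatch without food to survive in developmental arrest. Genetic work has placed some of the peptides as agonists of the receptor (daf-28, ins-3, ins-4, ins-6, ins-7 and ins-35 among them) and others as antagonists (ins-1, ins-17 and ins-18). Many are made in sensory neurons, and some also in the intestine.

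There were 18 conditions with 3 arrays each, 54 arrays in all, and the authors deposited 1 mean intensity and 1 error per condition, so each condition counted as 1 sample. Median intensities of the conditions ran between 35.1 and 41.2, and 10873 to 12332 of the 22548 worm probe sets were detected, meaning that the authors' detection p against background was under 1e-10. Fed and starved S-complete arrays were hybridized on 3 days each with 0 days in common, so that in every comparison of these conditions day and food cannot be told apart. The arrays of embryos shared the 3 days of the starved arrays, those of M9 shared the 3 days of the fed arrays, and refed and food removed arrays shared 1 day of their own. Day thus cannot be told apart from refeeding or food removal where these arrays are compared with starved or fed S-complete arrays. Errors printed after ± are the authors' error of a mean, or the error propagated from it to a log2 difference, unless named SE. Levels come from different probe sets and are not compared between genes.

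Of the 10 genes, 8 were detected in at least 1 condition (66.7% of all probe sets were) and 3 in all 18 (38.6% of all probe sets). Those 3 were ins-1, ins-17 and ins-18. ins-35 was detected in 13 conditions, daf-28 in 5, ins-24 in 3, ins-4 in 2 and ins-6 in 1. ins-3 and ins-7 were detected in 0. Over all genes and conditions 78 of 180 values were detected. Between its lowest and highest condition, ins-1 differed 5.07-fold, ins-17 3.87-fold and ins-18 3.49-fold. The authors' error had a median of 7.99% of the mean for ins-18 and 9.85% for ins-17, against 23.4% for daf-28 and 43.8% for ins-3, which lay at the floor of 5 in 9 conditions.

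**Figure D1:**
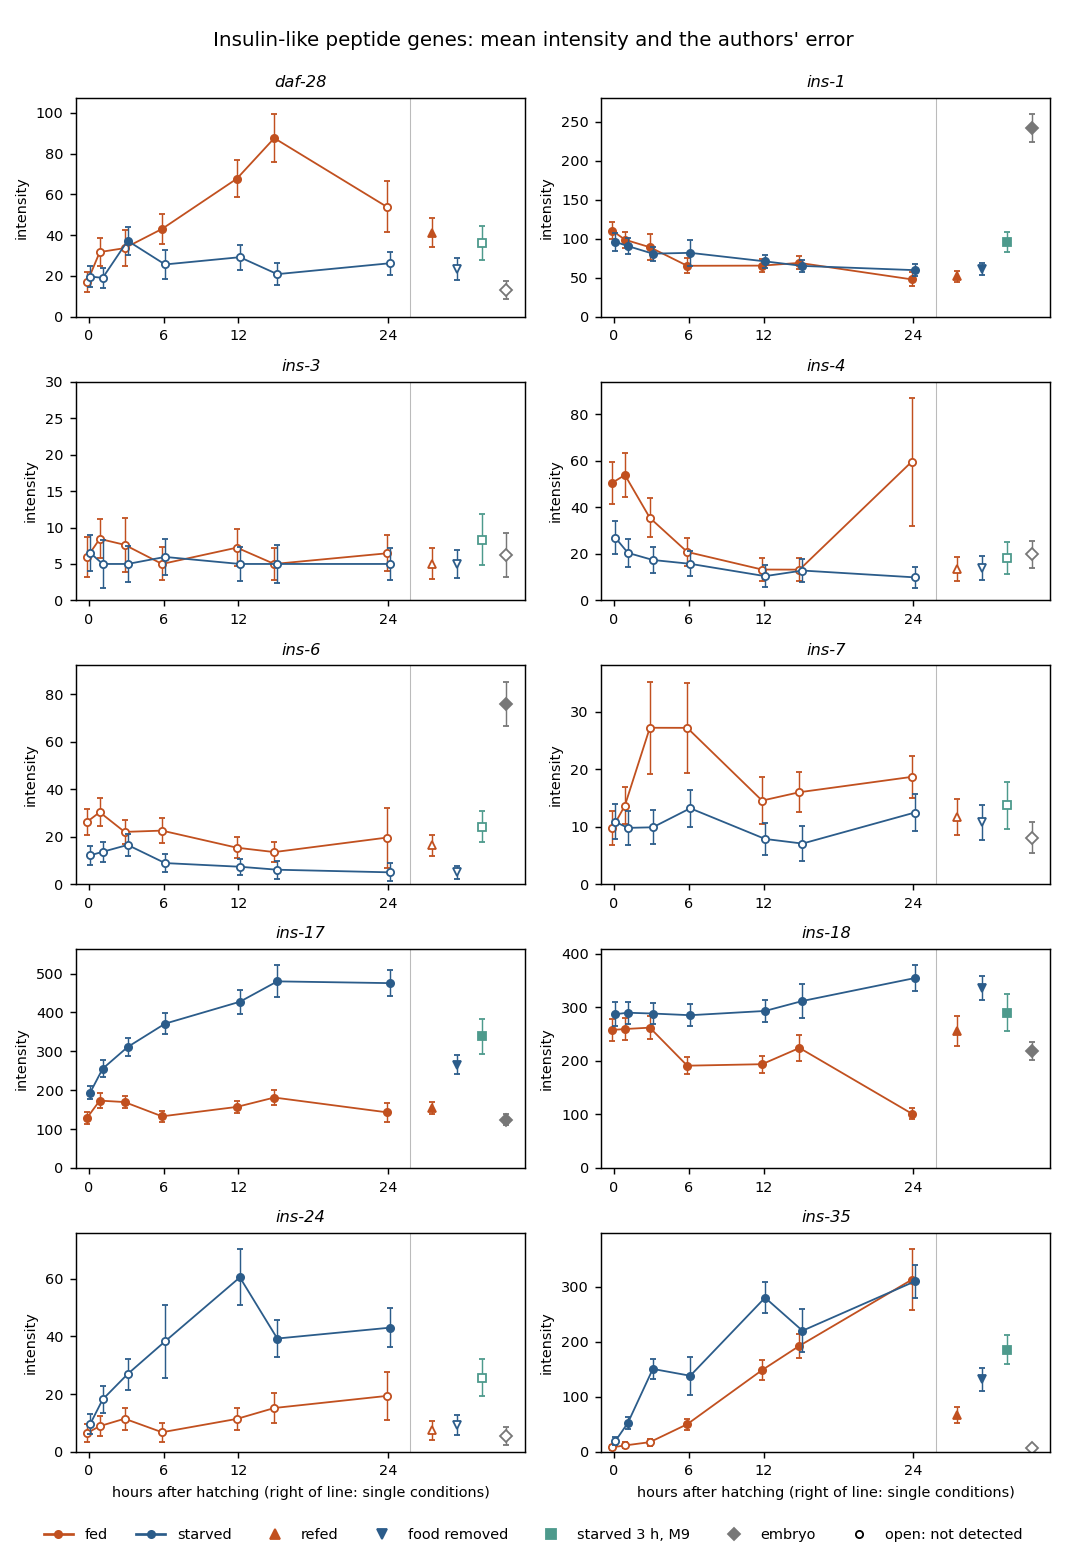
Mean intensity (vertical axis, linear) of each of the 10 genes against hours after hatching in fed and starved larvae, with the 4 other conditions right of the line. Bars are the authors' error, and open symbols were not detected. ins-17 lies lower in fed than in starved larvae at all 7 times, ins-24 is detected in starved larvae alone, daf-28 peaks at 87.6 in fed larvae at 15 h, and ins-1 and ins-6 are highest in embryos.

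Over the 7 matched times, fed larvae had higher levels of ins-6 and ins-7 and lower levels of ins-17, ins-24 and ins-35 than starved larvae. These 2 higher and 3 lower genes passed an adjusted p of 0.05 in a limma fit of the log2 means of fed and starved larvae with time as a factor, adjusted by the Benjamini-Hochberg method over all 22548 probe sets. In the same fit 13.5% of all probe sets were higher and 16.8% lower in fed larvae, shares not far from 2 and 3 of 10. The median log2 difference of the 10 genes was 0.12, against 0.00 over all probe sets. The fit treats the 7 times as independent pairs, although fed and starved arrays were hybridized on 3 days each and times may share cultures. Its errors may therefore overstate certainty. Both genes called higher, ins-6 and ins-7, were detected at none of the 14 conditions. The calls of ins-7 and ins-35 were lost when some single times were left out. The authors' deposited table of a 2-factor analysis of variance on the arrays, adjusted here, passed 9 of the 10 genes for food (68.9% of all probe sets with a value), all but ins-1. In whole animals, fewer cells of a type and less RNA per cell cannot be told apart.

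**Figure D2:**
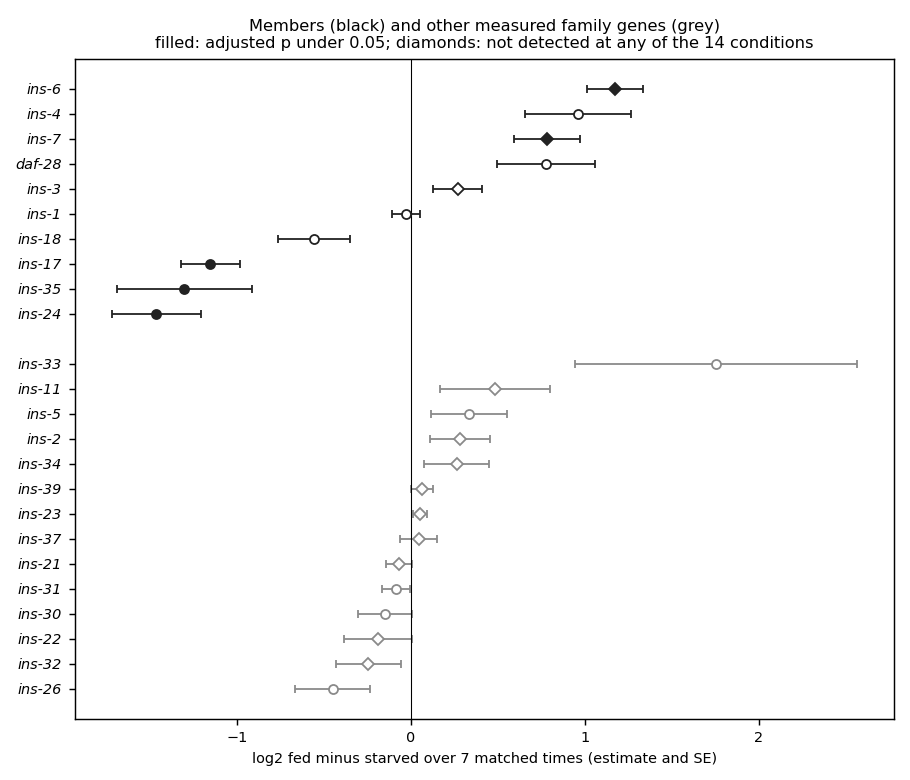
Log2 difference, fed minus starved, over 7 matched times (horizontal axis) with its SE from limma, for the 10 genes (black) and for the 14 other measured genes of the family (grey). Filled symbols passed an adjusted p of 0.05, and diamonds mark genes detected at none of the 14 conditions. Filled symbols lie right of 0 for ins-6 and ins-7 and left of 0 for ins-17, ins-35 and ins-24, and no grey symbol is filled.

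daf-28 encodes an agonist that is made in sensory neurons and keeps larvae out of the dauer stage. In fed larvae its intensity was 16.9, 31.7, 33.6, 43.1, 67.7, 87.6 and 54 from 0 to 24 h in time order, and it was detected at 6, 12 and 15 h. In starved larvae it was 19.7, 19, 37.2, 25.6, 29.2, 20.9 and 26.2 at the same times, and it was detected at 3 h. Fed larvae were lower at 0 and 3 h and higher at the other 5 times, and the ranges overlapped. The difference was called at 15 h, where fed larvae had 87.6 ± 11.8 and starved larvae 20.9 ± 5.2, at least 3.92-fold higher with food (adjusted p = 0.0464 for that pair in the authors' deposited table). Over the 7 times the log2 difference was 0.78 ± 0.28 (SE; limma adjusted p = 0.0777), with fed larvae higher at 5 of 7 times. Of the 7 fits that each left out 1 time, it passed in 1, without 0 h (0.94, limma adjusted p = 0.0494). The highest limma adjusted p among them was 0.168.

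The genes ins-3, ins-4 and ins-6 encode agonists; ins-4 and ins-6 act redundantly with daf-28 in the control of L1 arrest. ins-4 had 50.5, 53.9, 35.5, 20.8, 13.3, 13.2 and 59.6 in fed larvae and 26.9, 20.4, 17.4, 15.7, 10.4, 12.8 and 9.90 in starved larvae, from 0 to 24 h. It was detected in fed larvae at 0 and 1 h, and its highest mean, in fed larvae at 24 h, carried an error of 27.4 and was not detected. Fed larvae were higher at 7 of 7 times, which was not called in the 7-time fit (limma adjusted p = 0.0518). No fold is given over these times, since fed values from 3 h on were undetected as well. At 1 h they were at least 2.41-fold higher, which was not called either (adjusted p = 0.427 in the authors' deposited table). Of the 7 fits that each left out 1 time, ins-4 passed in 1, without 24 h (limma adjusted p = 0.0493). The highest limma adjusted p among them was 0.113.

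ins-6 was called higher in fed larvae (limma adjusted p = 0.00403), on levels that were not detected at any of the 14 conditions. Its intensity ran between 13.5 and 30.3 in fed larvae, with a mean of 21.4, and between 5.0 and 16.5 in starved larvae, with a mean of 9.95. Fed larvae were higher at 7 of 7 times. Since detected probe sets began at 19.4 to 23.6 depending on the condition, no fold is given for it. The call held with each of the 7 times left out in turn, with limma adjusted p between 0.00562 and 0.0143. ins-3 lay between 5.0 and 8.44 in all conditions and was not called (limma adjusted p = 0.196).

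ins-7 encodes an agonist made in neurons and intestine, where its transcript is known to be lowered by DAF-16 activity. It had 9.79, 13.7, 27.2, 27.2, 14.6, 16 and 18.7 in fed larvae and 10.9, 9.81, 9.91, 13.2, 7.88, 7.07 and 12.5 in starved larvae, from 0 to 24 h. Fed larvae were higher at 6 of 7 times and the 3 h and 6 h fed values stood above the rest, but none was detected. The 7-time difference was called (limma adjusted p = 0.022; means of 18.2 in fed and 10.2 in starved larvae), and the call was lost without 6, 12 or 15 h (highest limma adjusted p = 0.0578).

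ins-17 encodes an antagonist that promotes dauer formation. In fed larvae its intensity was 129.5, 173, 169.5, 133, 157, 181 and 143 from 0 to 24 h. In starved larvae it was 194, 255, 311, 371, 428, 480.0 and 476 at the same times. No fed value reached the lowest starved one, which held for ins-17 and ins-18, 2 of the 10 genes, and for 6.06% of all probe sets, and starved levels stood higher at each later time up to 15 h. Over the 7 times, ins-17 was 1.15 ± 0.17 lower on the log2 scale in fed than in starved larvae (SE; limma adjusted p = 0.0046). This was called with each of the 7 times left out in turn. The difference was -0.58 ± 0.22 at 0 h, -0.88 ± 0.18 at 3 h, -1.44 ± 0.18 at 12 h and -1.73 ± 0.27 at 24 h, and the pair was called at 12 h (adjusted p = 0.0291 in the authors' deposited table). At 24 h that table did not call it (adjusted p = 0.134), while an error-based test, which sets a difference of means against the authors' errors, did (adjusted p = 0.032). Within starved larvae, 6 h minus 0 h gave 0.94 ± 0.17, which was not called (adjusted p = 0.166, error-based test).

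ins-18, another antagonist, was detected throughout. In fed larvae it had 258, 259, 262, 191, 194, 224 and 101 from 0 to 24 h, and in starved larvae 287, 289.7, 288, 285, 293, 312 and 354. The fed values were all below the starved values, by a small margin up to 3 h and by the widest at 24 h. At 24 h, when fed larvae are labelled L2, the pair was called, with 101 ± 10.8 in fed and 354 ± 23.6 in starved larvae (-1.80 ± 0.18; adjusted p = 0.0352 in the authors' deposited table). The 7-time difference of -0.56 ± 0.21 was not called (SE, limma adjusted p = 0.0843), and without 24 h it was -0.35 and passed (limma adjusted p = 0.0357). That was the 1 fit to pass of the 7 that each left out 1 time, with a highest limma adjusted p of 0.158.

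ins-1, the family member nearest in sequence to human insulin, did not separate by food. It had 110.3, 98.8, 89.1, 65.3, 65.5, 69.0 and 47.8 in fed larvae and 95.9, 90.6, 80.9, 81.9, 71.0, 65.1 and 59.7 in starved larvae, from 0 to 24 h. Fed larvae were higher at 4 of 7 times, and both groups had their lowest value at 24 h. The 7-time difference was -0.03 ± 0.08 (SE; limma adjusted p = 0.835), and its sign turned without 6 h (0.019) and without 24 h (0.018).

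ins-24 had 6.53, 8.87, 11.5, 6.76, 11.4, 15.2 and 19.4 in fed larvae, none of them detected. In starved larvae it had 9.63, 18.2, 27, 38.3, 60.5, 39.3 and 43.0 from 0 to 24 h, and was detected at 12, 15 and 24 h. Starved larvae were higher at 7 of 7 times. Over these times fed larvae were called lower (limma adjusted p = 0.00798), and the call held with each of the 7 times left out in turn. No fold is given over them, since the starved values at 0 to 6 h were undetected as well. The probe set used is of the kind Affymetrix marks as shared by related transcripts, although the deposited annotation maps it to ins-24 alone. The other unique probe set of ins-24 had means of 6.41 in fed and 13.5 in starved larvae, was detected in neither, and was called in the same direction (limma adjusted p = 0.00695).

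ins-35, expressed in the intestine and able to hold larvae out of dauer, was high in both groups by 24 h but at different times before. In fed larvae it had 8.13, 11.4 and 17.4 at 0, 1 and 3 h, undetected, then 50.0, 148, 192 and 312 at 6, 12, 15 and 24 h. In starved larvae it had 19.5 at 0 h, undetected, then 52.5, 150.4, 138, 279.9, 219.8 and 309 from 1 to 24 h. Starved larvae at 3 h were thus at the level that fed larvae had at 12 h, and at 24 h the groups met. The widest gap was at 3 h, with 17.4 ± 6.4 in fed and 150.4 ± 18.8 in starved larvae, at least 7.03-fold lower with food and not called (adjusted p = 0.0679 in the authors' deposited table). The difference was -0.92 ± 0.23 at 12 h, -0.19 ± 0.30 at 15 h and 0.01 ± 0.29 at 24 h. The 7-time difference of -1.30 ± 0.39 was called (SE; limma adjusted p = 0.0434), but it was lost without 0, 1, 3, 6 or 12 h (highest limma adjusted p = 0.0981).

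At single times 0 of the 10 genes were called at 0, 1, 3 and 6 h by the authors' deposited table of pairwise tests, adjusted here. Over all probe sets the calls at these times were 0.0% higher and 0.0% lower in fed larvae at 0 h, 0.0% and 0.00443% at 1 h, 0.417% and 0.612% at 3 h, and 0.763% and 0.798% at 6 h. At an unadjusted p under 0.05 the same table had 2 genes at 0 h (6.3% of all probe sets), 0 at 1 h (14.3%), 2 at 3 h (21.5%) and 3 at 6 h (23.5%) in either direction, and the error-based test called 0 at these times. At 12 h, 1 gene was called lower, which was ins-17 (4.59% of all probe sets were higher and 5.3% lower). At 15 h, 1 gene was called higher, which was daf-28 (2.19% higher and 2.5% lower), and at 24 h 1 gene lower, which was ins-18 (3.87% higher and 3.91% lower). The unadjusted counts at these times were 5 genes at 12 h (28.5% of all probe sets), 3 at 15 h (24.6%) and 3 at 24 h (27.4%).

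**Figure D3:**
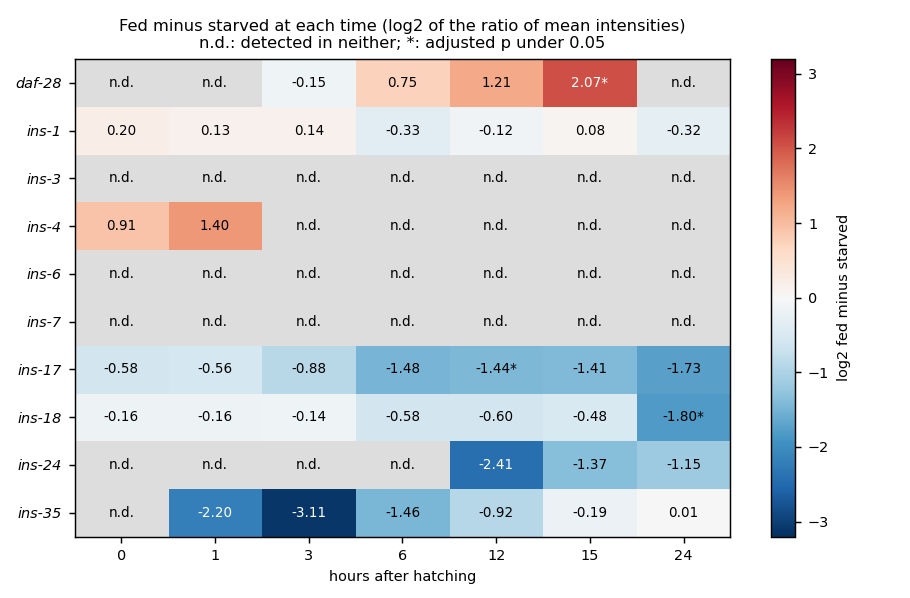
Log2 of the ratio of mean intensities, fed minus starved, for each of the 10 genes (rows) at each of the 7 times (columns, hours after hatching). Grey cells marked n.d. were detected in neither condition, and a star marks an adjusted p under 0.05 in the authors' pairwise tests. Where 1 side was undetected the cell shows the ratio of the measured means. ins-17 lies at -0.58 at 0 h and -1.73 at 24 h, ins-35 at -0.92 at 12 h and 0.01 at 24 h, and the stars stand at daf-28 at 15 h, ins-17 at 12 h and ins-18 at 24 h.

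When food was given for 3 h to larvae starved for 12 h, ins-24, ins-17 and ins-35 had lower values than in larvae starved throughout, and ins-24 was called against 12 h of starvation. ins-24 had 7.42 ± 3.3 in refed larvae, undetected, against 60.5 ± 9.8 in larvae starved for 12 h, at least 2.95-fold lower (adjusted p = 0.0345 in the authors' deposited table). It was the 1 gene called in this pair, in which 1.36% of all probe sets were called higher and 1.85% lower, and 4 genes had an unadjusted p under 0.05 (24.1% of all probe sets). With the larvae starved for 15 h (39.3 ± 6.4) as the match in age, it was at least 1.91-fold lower and not called (adjusted p = 0.058 in the authors' deposited table). ins-17 had 154 ± 15.5 in refed larvae, against 480.0 ± 40.9 after 15 h and 428 ± 30.5 after 12 h of starvation. Its differences were -1.64 ± 0.19 and -1.48 ± 0.18 and were not called by the authors' deposited table (adjusted p = 0.0584 and 0.0558). The error-based test called ins-17 against 12 h (adjusted p = 0.0438) and not against 15 h (adjusted p = 0.0529).

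ins-35 had 67.2 ± 14.7 in refed larvae, against 219.8 ± 38.9 after 15 h and 279.9 ± 27.8 after 12 h of starvation. The second difference, -2.06 ± 0.35, was not called by the authors' deposited table (adjusted p = 0.178) and passed the error-based test (adjusted p = 0.0493). daf-28 was detected in refed larvae, at 41.2 ± 7.1, against 20.9 ± 5.2 and 29.2 ± 6.1 after 15 and 12 h of starvation, neither of them detected. It was at least 1.84-fold higher than after 15 h, and this was not called (adjusted p = 0.129 in the authors' deposited table). Against larvae starved for 15 h, 0 of the 10 genes were called in refed larvae by that table, where 0.878% of all probe sets were higher and 1.16% lower. At an unadjusted p under 0.05 it had 4 genes (21.9% of all probe sets), and the error-based test called 0. Differences from 12 h and from 15 h of starvation share the refed arrays, whose day held no starved arrays.

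When food was taken away for 3 h after 12 h of feeding, 0 of the 10 genes were called, and few probe sets were called on the arrays as a whole. In the authors' deposited table, 0.0% of all probe sets were higher and 0.00443% lower than in larvae fed for 15 h, and 0.00887% higher and 0.0177% lower than in larvae fed for 12 h. At an unadjusted p under 0.05 that table had 3 genes against 15 h (9.7% of all probe sets) and 3 against 12 h (16.4%), and the error-based test called 0. daf-28 had 23.5 ± 5.5 after food removal, undetected, against 87.6 ± 11.8 and 67.7 ± 9.2 in larvae fed for 15 and 12 h. It was at least 3.73-fold lower than at 15 h (adjusted p = 0.358 in the authors' deposited table, unadjusted p = 0.00364). ins-17 had 266 ± 24.1 after food removal, against 181 ± 19 and 157 ± 15.7 in larvae fed for 15 and 12 h. ins-18 had 336 ± 22.7 after food removal, against 224 ± 24.5 and 194 ± 15.8 in larvae fed for 15 and 12 h. ins-24 (9.22) was not detected after food removal, and ins-35 had 132 ± 21, against 192 ± 21.8 and 148 ± 18.6 in larvae fed for 15 and 12 h. The day of the food removed arrays held no fed arrays.

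**Figure D4:**
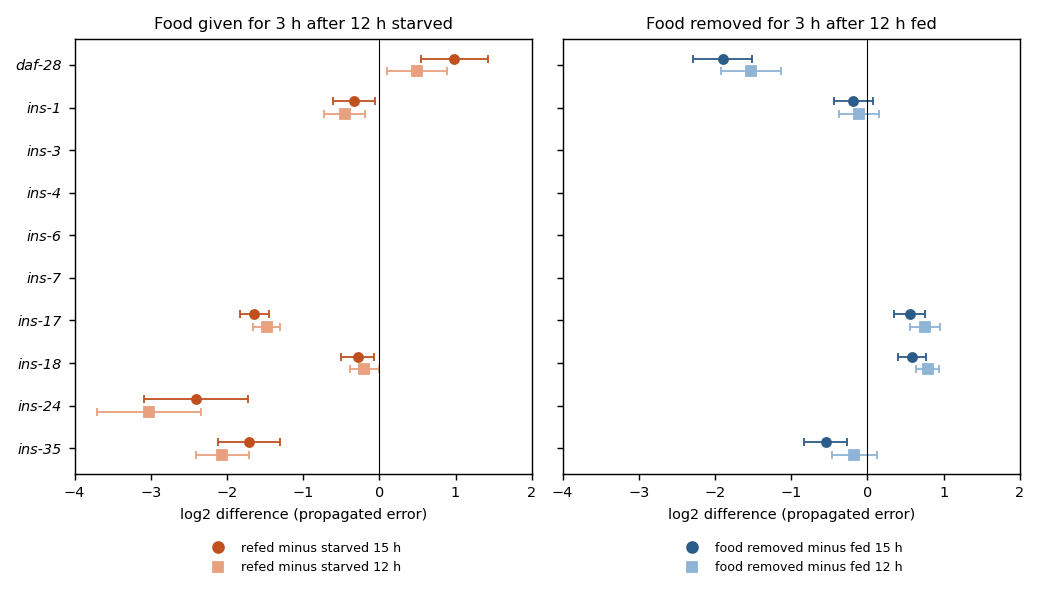
Log2 differences with propagated errors for each of the 10 genes (rows) after food was given for 3 h (left) and after food was removed for 3 h (right), each against the later and the earlier matching condition. Differences with neither side detected are not drawn. ins-17 lies at -1.64 and -1.48 after refeeding and at 0.55 and 0.76 after food removal, and ins-18 at -0.28 and -0.20 after refeeding and at 0.58 and 0.79 after food removal.

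A pair of comparisons on arrays of the same days can be set beside these values, although neither differs in food alone. In fed larvae at 3 h against larvae starved for 3 h in M9, where the medium differs as well, ins-17 had 169.5 ± 16.5 in fed and 339 ± 44.8 in M9 larvae (-1.0 ± 0.24; error-based adjusted p = 0.233). ins-35 had 17.4 ± 6.4 in fed and 186 ± 26.1 in M9 larvae, at least 8.67-fold lower (error-based adjusted p = 0.151). ins-1 and ins-18, detected on both sides, differed by -0.11 ± 0.33 and -0.15 ± 0.21. The rest were undetected on both sides, with differences of 0.99 ± 0.60 for ins-7, 0.96 ± 0.65 for ins-4 and -1.17 ± 0.60 for ins-24. For daf-28, ins-3 and ins-6 they were -0.10 ± 0.51, -0.13 ± 0.93 and -0.13 ± 0.52. In that pair 0.0% of all probe sets were called in either direction and 0 of the 10 genes, with 2 genes at an unadjusted p under 0.05 (16% of all probe sets). The authors gave no test of this pair. Refed and food removed larvae also differ in their first 12 h, spent without food by the former and with food by the latter. Refed against food removed larvae, a comparison added after the data had been seen, gave 154 ± 15.5 in refed and 266 ± 24.1 in food removed larvae for ins-17 (-0.79 ± 0.20; error-based adjusted p = 0.109). daf-28 had 41.2 ± 7.1 in refed and 23.5 ± 5.5 in food removed larvae, at least 1.75-fold higher (error-based adjusted p = 0.326). ins-35, ins-18 and ins-1, detected in both, differed by -0.97 ± 0.39, -0.39 ± 0.18 and -0.23 ± 0.28. Undetected in both were ins-6 (1.71 ± 0.92), ins-7 (0.11 ± 0.56), ins-4 (-0.04 ± 0.75), ins-24 (-0.31 ± 0.85) and ins-3, which lay at the floor of 5. Here 0 of the 10 genes were called, against 2.22% of all probe sets higher and 2.26% lower, and 1 gene had an unadjusted p under 0.05 (25.7% of all probe sets).

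The starvation medium made no called difference at 3 h. ins-17 had 339 ± 44.8 in M9 and 311 ± 24.4 in S-complete. ins-18 had 289.9 ± 33.9 in M9 and 288 ± 20.4 in S-complete, and ins-35 had 186 ± 26.1 in M9 and 150.4 ± 18.8 in S-complete. ins-24 had 25.7 ± 6.4 in M9 and 27 ± 5.4 in S-complete, undetected in both. The authors' deposited table called 0 of the 10 genes and 0.0% of all probe sets. At an unadjusted p under 0.05 it had 0 of the 10 genes (3.18% of all probe sets), and the error-based test called 0. These arrays lay on different days.

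At hatching, ins-1 and ins-6 had lower values in larvae than in embryos, while ins-4 in fed larvae and ins-17 in starved larvae had higher ones. ins-1 had 95.9 ± 11.3 in starved larvae at 0 h, on the same hybridization days as the embryos, against 242 ± 17.6 in embryos (-1.34 ± 0.20; adjusted p = 0.0811 in the authors' deposited table). In fed larvae at 0 h it had 110.3 ± 10.9 (-1.14 ± 0.18 from embryos; adjusted p = 0.16 in the authors' deposited table). ins-6 was detected in embryos alone, at 76.0 ± 9.3. It had 12.2 ± 4.1 in starved larvae at 0 h, at least 3.66-fold lower (adjusted p = 0.146 in the authors' deposited table), and 26.3 ± 5.5 in fed larvae at 0 h, at least 2.89-fold lower (adjusted p = 0.307). ins-4 had 50.5 ± 8.99 in fed larvae at 0 h, against 19.7 ± 5.8 in embryos, undetected, at least 2.56-fold higher (adjusted p = 0.448 in the authors' deposited table). In starved larvae at 0 h ins-4 had 26.9 ± 7.0, also undetected (adjusted p = 0.645 in that table). ins-17 had 194 ± 17.9 in starved larvae at 0 h, against 124 ± 14.8 in embryos (0.65 ± 0.22; adjusted p = 0.217 in that table). In fed larvae at 0 h ins-17 had 129.5 ± 15.5 (0.06 ± 0.24 from embryos). The authors' deposited table called 0 of the 10 genes in starved larvae at 0 h against embryos, with 1.15% of all probe sets higher and 1.25% lower, and 0 in fed larvae, with 0.0% in either direction. At an unadjusted p under 0.05 it had 3 genes in starved larvae (25.4% of all probe sets) and 2 in fed larvae (16.2%), and the error-based test called 0 in both. daf-28, ins-17, ins-24 and ins-35 had their lowest level of all conditions in embryos, at 13, 124, 5.42 and 7.63.

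Within fed or starved larvae, 0 of the 10 genes were called in any of the 6 steps compared between an earlier and a later time. These were starved 0 to 6 and 6 to 24 h, and fed 0 to 6, 6 to 12, 12 to 15 and 15 to 24 h. Some of them pass over sampled times in between. The first 3 steps used the error-based test and the others the authors' deposited table, with 0 calls among the 10 genes by the error-based test there too. Over all probe sets, 0.248% were called between 6 and 12 h and 0.00887% between 12 and 15 h in fed larvae, and 0.0% in the other steps. For ins-35, fed larvae had 148 ± 18.6 at 12 h and 50.0 ± 10.3 at 6 h (1.57 ± 0.35; adjusted p = 0.101 in the authors' deposited table, unadjusted p = 0.0014). At an unadjusted p under 0.05 there were 2 genes in starved larvae between 0 and 6 h (12.8% of all probe sets) and 1 between 6 and 24 h (8.16%). In fed larvae there were 3 between 0 and 6 h (22.7%), 1 between 6 and 12 h (16.2%), 1 between 12 and 15 h (12.3%) and 1 between 15 and 24 h (12.2%). The authors' deposited 2-factor table, adjusted here, had a food-by-time term past 0.05 for 8 of the 10 genes (54.7% of all probe sets with a value), all but ins-1 (adjusted p = 0.356) and ins-3 (adjusted p = 0.59).

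When the 18 levels of each gene were put in order, few neighbours differed by more than 2 combined errors. There were 6 such steps over the 10 genes, with 17 steps per gene. ins-1 and ins-6 had such a step next to embryos, with 110.3 in fed larvae at 0 h against 242 in embryos for ins-1, and 30.3 in fed larvae at 1 h against 76.0 in embryos for ins-6. ins-18 had its step at the lower end, between 101 in fed larvae at 24 h and 191 at 6 h. ins-17 had a step between 255 in larvae starved for 1 h and 194 at 0 h, so that 8 conditions without food, M9 and food removal included, lay above it. ins-35 had a pair of steps, between 67.2 in refed larvae and 132 after food removal and between 50.0 in fed larvae at 6 h and 19.5 in starved larvae at 0 h. daf-28, ins-3, ins-4, ins-7 and ins-24 had 0 such steps.

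Profiles over the 18 conditions, compared as Pearson correlations of log2 means, are given as descriptions, since all points share the same arrays and cultures. ins-17 and ins-24 had an r of 0.89, ins-24 and ins-35 0.76, and ins-17 and ins-35 0.63. ins-6 and ins-17 ran opposite, at -0.74, as did ins-1 and ins-35 at -0.72. ins-24 and ins-6 were each undetected in most conditions. Among 3219 other named genes that were detected in at least 9 conditions and ranged over at least 1 log2 unit, those most like ins-17 were far-7 (0.96), a fatty acid and retinol binding protein gene, and pqn-48 (0.95). Those most like ins-35 were far-8 (0.95), of the same family, and pyr-1 (0.94), which encodes the enzyme that starts pyrimidine synthesis. For ins-18 they were the neuropeptide gene nlp-21 (0.94) and the GABA receptor subunit gene gab-1 (0.94). For ins-1 they were set-11 (0.97) and the glutamate-gated chloride channel gene avr-14 (0.97), and for daf-28 the peroxiredoxin gene prdx-6 (0.85) and ddl-3 (0.83).

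Several of the genes are neighbours of other family members in the gene order of the RefSeq annotation (assembly WBcel235), which is used here for order alone. On chromosome II, ins-2, ins-3, ins-4, ins-5 and ins-6 follow one another with 0 coding genes between neighbours. In the 7-time fit ins-6 was called higher in fed larvae, on undetected levels, and the others were not called. From ins-2 to ins-6 the log2 differences were 0.28, 0.27, 0.96, 0.33 and 1.17, all higher in fed larvae. ins-6 was detected in 1 condition, ins-4 in 2, ins-5 in 3, and ins-2 and ins-3 in 0. On chromosome I, ins-24, ins-30 and ins-26 follow one another in the same way. ins-30 was detected in 16 conditions and ins-26 in 10, and neither was called in the 7-time fit, with means of 79.6 in fed and 86.7 in starved larvae for ins-30 (limma adjusted p = 0.521) and of 30.5 in fed and 41.0 in starved larvae for ins-26 (limma adjusted p = 0.156).

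Of 30 other family genes listed, 14 had a unique probe set, 6 were detected in at least 1 condition, and 0 were called in the 7-time fit. ins-33 was at or near the floor in all starved S-complete conditions, between 5.0 and 10.6, and undetected there. In fed larvae it was undetected up to 6 h, where it had 8.76, and had 82.5, 98.3 and 253 at 12, 15 and 24 h, all detected. It was also detected after food removal, at 117. Over the 7 times its means were 65.5 in fed and 6.95 in starved larvae, which was not called (limma adjusted p = 0.148). ins-5 had its highest values in fed larvae at 24 h (67.0) and 15 h (53.6), and ins-22 had 133 in embryos and at most 37.8 in any other condition. ins-31 was detected in 14 conditions and stayed between 26.3 and 42.3.

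**Figure D5:**
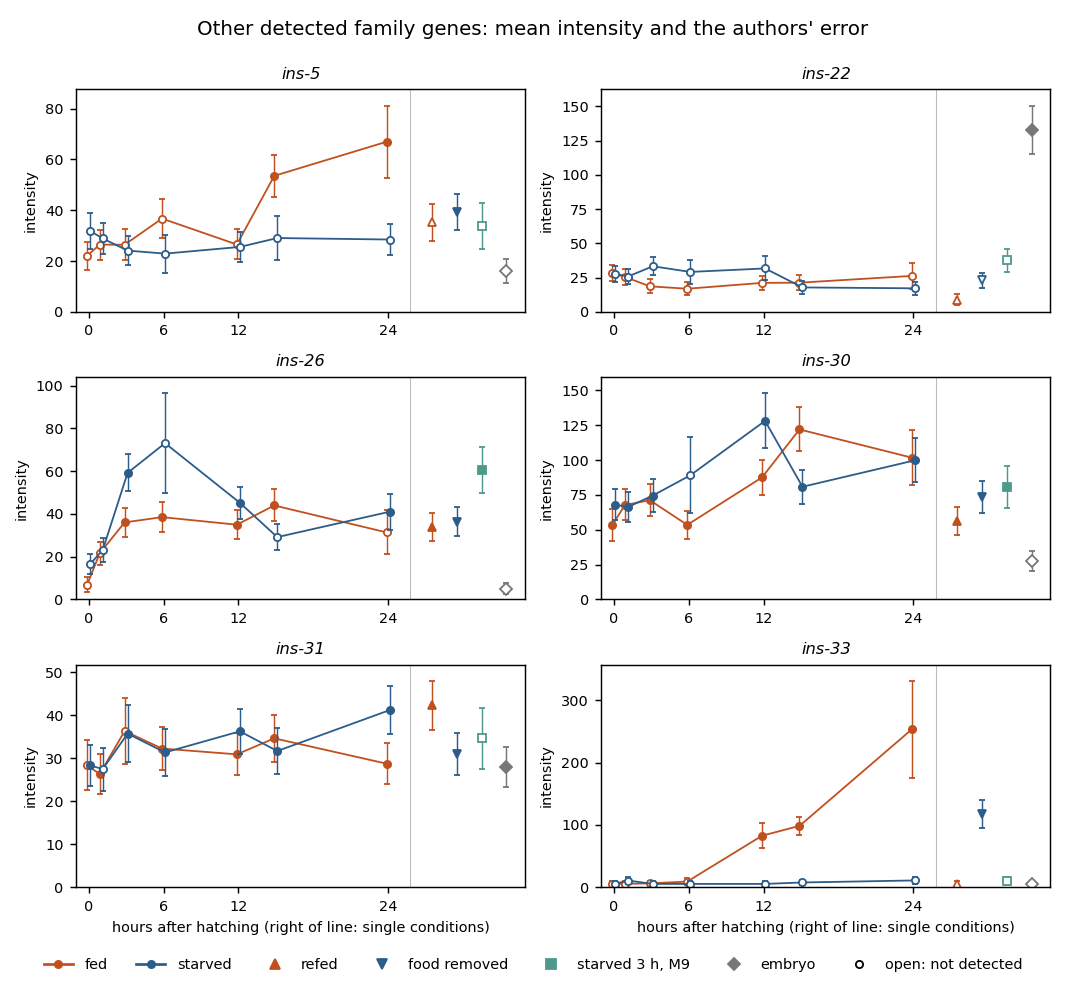
Mean intensity (vertical axis, linear) against hours after hatching in fed and starved larvae for the 6 other family genes detected in at least 1 condition, with the 4 other conditions right of the line. Bars are the authors' error and open symbols were not detected. ins-33 reaches 253 in fed larvae at 24 h against 10.6 in starved larvae, and ins-22 stands at 133 in embryos.

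Of 16 genes for the receptor and its signalling, 8 were lower and 1 was higher in fed larvae in the 7-time fit, in which 16.8% of all probe sets were lower and 13.5% higher. The list had a median of -0.24, against 0.00 over all probe sets. The receptor gene daf-2 had 15.9 in fed and 18.5 in starved larvae on average, was not detected in any fed or starved condition, and was not called (limma adjusted p = 0.244). The kinase genes pdk-1 (-1.05 ± 0.13), akt-1 (-1.02 ± 0.12) and akt-2 (-1.03 ± 0.09) were lower in fed than in starved larvae. The insulin receptor substrate gene ist-1 (-1.14 ± 0.17) and the FoxO gene daf-16 (-0.66 ± 0.10) were lower too (all errors SE; limma adjusted p of these genes between 0.0011 and 0.0049). age-1 (-0.25), pptr-1 (-0.42), a phosphatase regulatory subunit gene, and rict-1 (-0.37), which encodes a TORC2 component, were lower by less. hcf-1, whose product restrains DAF-16, was higher in fed larvae by 0.59 ± 0.14 (SE; limma adjusted p = 0.0198).

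Of 14 genes for the cleavage and secretion of peptides, 6 were lower and 0 higher in fed larvae (16.8% and 13.5% of all probe sets), with a median of -0.32. They were the proprotein convertase genes egl-3 (-0.63), kpc-1 (-0.17) and aex-5 (-0.58), the convertase chaperone gene sbt-1 (-0.74), and ric-19 (-0.77) and tom-1 (-0.79), which act in vesicle traffic and release. Of 8 genes known to respond to DAF-16, 5 were lower in fed larvae (16.8% of all probe sets), namely sod-3, mtl-1, hsp-12.6, dod-3 and hil-1, with a median of -2.42 for the list. The desaturase gene fat-7 was the 1 gene higher (13.5% of all probe sets), at 410.2 in fed and 33.9 in starved larvae on average, and was detected in 0 of the 7 starved conditions. The gene lists were chosen with earlier results of these data known, so their counts and medians are descriptions and not independent support.

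Markers of tissues were read in the same fit, in which 16.8% of all probe sets were lower and 13.5% higher in fed larvae. Of 12 neuronal markers, 4 were lower in fed larvae (snt-1, unc-13, unc-104 and egl-8) and 1 higher (tbb-4), with a summed intensity between 2287 and 4484 in fed and between 3314 and 4122 in starved conditions. Of 9 markers of chemosensory neurons, 1 was lower (osm-6, -0.49) and 1 higher (odr-4, 0.21), with sums between 469.8 and 614 in fed and between 492 and 577 in starved conditions, and 2 of the 9 were detected in 0 conditions. Of 10 intestinal markers, 3 were higher (act-5, pgp-1 and pgp-3) and 2 lower (ges-1 and ifb-2), with sums between 11706 and 16016 in fed and between 7296 and 15916 in starved conditions. Of 6 body wall muscle markers, 2 were lower (myo-3 and mlc-1), with sums between 7448 and 12913 in fed and between 8317 and 15115 in starved conditions. All neuronal, intestinal and muscle markers were detected in at least 1 condition. The part of these tissues in the values of the insulin-like peptide genes was not tested.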

How the data were processed

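The members and gene lists were chosen with earlier results of these data known. RNA of whole worms was amplified and labelled, per the labels' protocols, from 100 ng for each array. The authors deposited, per the file headers, a mean intensity of 3 replicates per condition with values under 5 raised to 5, and an error of each mean; the sources used here do not state background correction or normalization. The detection p deposited by the authors was treated as a score. The deposited p-value tables hold pairwise t-tests and analyses of variance.

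Here log2 of the means was tested with limma 3.58.1 (R 4.3.3) over 14 fed and starved conditions with time as a factor, and Benjamini-Hochberg adjustment ran over 22548 worm probe sets. Pairs used the authors' p-values, adjusted here. The sources used here do not state whether the deposited error is a standard deviation, a standard error or a modelled error. It was used as a standard error of the mean. The error-based test divided the difference of means by their combined errors (4 degrees of freedom). Over all probe sets the root mean square of the M9 and S-complete difference divided by these errors was 0.763. Both tests were tested on simulated data. In a pair with 1 side detected, the undetected side gives a bound ("at least"). It is computed against the higher of that side's own value and the lowest detected intensity of its condition. All members were named. Likeness named the 2 genes with the highest Pearson correlation for each member detected in at least 4 conditions, and list genes were named where past the threshold. A planned search of promoters for motifs was not run, as no promoter sequence was used here. Alternatives covered left-out times, normalization, pseudocount, filters and the other test.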

Additional observations from a re-analysis of the deposited data

Results flagged for a closer look

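The difference between fed and starved larvae changed with time for 8 of the 10 genes, by the food-by-time term of the authors' deposited 2-factor analysis of variance, adjusted here over all probe sets. The adjusted p was 1.33e-15 for ins-4 and for ins-35, 9.84e-15 for ins-17, 1.37e-10 for ins-18 and 1.02e-09 for ins-24. It was 3.05e-08 for ins-7, 2.12e-05 for daf-28 and 0.0019 for ins-6. By this term ins-4 and ins-35 share an unadjusted p of 1.11e-16 with ins-33 and other genes, so it does not rank them. The same term passed for 54.7% of all probe sets with a value. ins-35 was lower in fed larvae by at least 7.03-fold at 3 h and differed by 0.01 on the log2 scale at 24 h, whereas ins-17 differed by -0.58 at 0 h and by -1.73 at 24 h. For ins-6 and ins-7 the term rests on levels that were not detected in fed or starved larvae. For 3 other genes it rests largely on undetected levels. ins-4 was detected at 2 of 7 fed and 0 of 7 starved times, ins-24 at 0 and 3, and daf-28 at 3 and 1. The arrays of fed and starved larvae had no hybridization day in common, and the part of the day in this term was not tested.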

How the results depend on the processing

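Over the 7 times, leaving out each time in turn kept the direction and call of 57 gene results, lost 8 calls, gained 3 and turned 2 signs, both of ins-1 (0.019 without 6 h and 0.018 without 24 h, in a range of -0.069 to 0.019). The genes called higher in fed larvae numbered 1 (without 6, 12 or 15 h) to 3 (without 0 or 24 h), and all probe sets called higher numbered 2015 (without 12 h) to 2950. Quantile normalization, a pseudocount of 20, an intensity trend and the rounded series matrix values left all 10 results on their side of the threshold. Without the time factor ins-18 passed and ins-35 did not. Testing detected probe sets only left out ins-3, ins-6 and ins-7, so that the 2 genes called higher were daf-28 and ins-4, and it also brought ins-18 past the threshold. In pairs, detected probe sets only gave 7 calls between fed and starved larvae (3 otherwise), 4 after refeeding (1 otherwise) and 1 at hatching, which was ins-1 in starved larvae at 0 h (0 otherwise). The error-based test gave 2 calls after refeeding. It did not call daf-28 at 15 h (adjusted p = 0.0755) or ins-24 in refed larvae (adjusted p = 0.0744). At a detection p under 0.001, 133 values were detected. At 1 combined error 15 neighbouring levels differed. Spearman correlation chose 3 of the 10 genes named for likeness. The cause was not tested. No paired analysis was possible because each condition has 1 sample and the labels give no replicate numbers. Signal near background limits ins-3, ins-6 and ins-7 most.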
